A study of Rattus norvegicus with 47 samples.

Results

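The comparison set out here is of rat blood 2 h post MCA occlusion with blood taken from the same animals at 0 h, for each of the 27596 probe sets in the table. Its samples were chosen by their labelled time point and comprise 8 arrays at 2 h and 8 arrays at 0 h, which is 16 of the 47 arrays of a series that also has arrays at 1, 3, 6 and 24 h. The animals were 8 male spontaneously hypertensive rats (SHR), 16 weeks old, all of which had thread occlusion of the middle cerebral artery (MCA), the vessel that feeds much of the side of the brain. Each rat gave a sample at both times, so the groups are the same rats and differ in time alone as far as the labels say. The 0 h blood was drawn before anesthesia, whereas by 2 h each rat had been through anesthesia, surgery, the occlusion, a blood sample at 1 h and a second anesthesia in which the thread was withdrawn and blood flow returned. No sample came from a rat without stroke, so the occlusion, the reperfusion, the surgery, the anesthesia, the repeated bleeding and the time of day cannot be told apart in any difference given here. Blood at both times was collected from the tail vein into heparin, and RNA was made from the pellet of all blood cells, so that fewer cells of a type and less RNA per cell cannot be told apart either.

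Blood carries neutrophils, monocytes and lymphocytes beside a large excess of red cells and platelets. Neutrophils are held in a bone marrow reserve and along vessel walls and can enter the circulation quickly, while adrenal glucocorticoids and catecholamines are known to move lymphocytes out of the blood. Interleukin-1, Toll-like receptor and interferon signalling are the best known routes by which blood cells respond to injury, and the circadian clock genes set daily rhythms in the same cells.

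The signals are log2 RMA values, in which a difference of 1 is a fold change of 2, and the mean and SD of each time point are those that the authors deposited. The array columns bear running numbers that no label ties to a rat and a time, and they were not assigned by their order, so spread is given throughout as the authors' SD over the 8 arrays and no rat's own change is shown. The median SD over all probe sets was 0.14 at both 0 h and 2 h. A probe set is said to have risen, fallen or been called where the FDR of limma's moderated test, computed from the deposited means and SDs with the Benjamini-Hochberg method over all probe sets, was below 0.05. Of 6 genes listed as common to leukocytes 2 rose and none fell, with a median change of -0.01, and markers of blood cells had high signals. Ptprc (CD45) was at 12.71 ± 0.08 at 0 h and 12.59 ± 0.10 at 2 h, and Hbb, a hemoglobin chain, was at 13.50 ± 0.12 at both times. Ptprc was called lower with each time point's means centred on their median (-0.15, FDR 0.0185). It was also called lower with an ordinary test without moderation (FDR 0.0388). The columns used here hold no detection call, so whether brain or endothelial transcripts were above background in these samples was not tested.

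At 2 h, 11139 of the 27596 probe sets (40.4%) had been called, 6002 higher (21.7%) and 5137 lower (18.6%). The median change over all probe sets was 0.05. Of the probe sets called, 97.6% had changed by more than the higher of their SDs at 0 h and 2 h. The larger changes were divided unevenly between the directions. At a change of at least 0.5 the called probe sets numbered 964 higher and 2060 lower, whereas at a change of at least 2 they numbered 38 higher and 20 lower. Which direction held more calls depended on the scaling, since with each time point's means centred on their median 4443 probe sets were called higher and 5602 lower. Taken by gene symbol, 9312 of 20935 genes (44.5%) had been called, 4849 higher (23.2%), 4441 lower (21.2%) and the rest with probe sets called both ways, and these shares are the background for the counts of each gene list below.

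**Figure D1:**
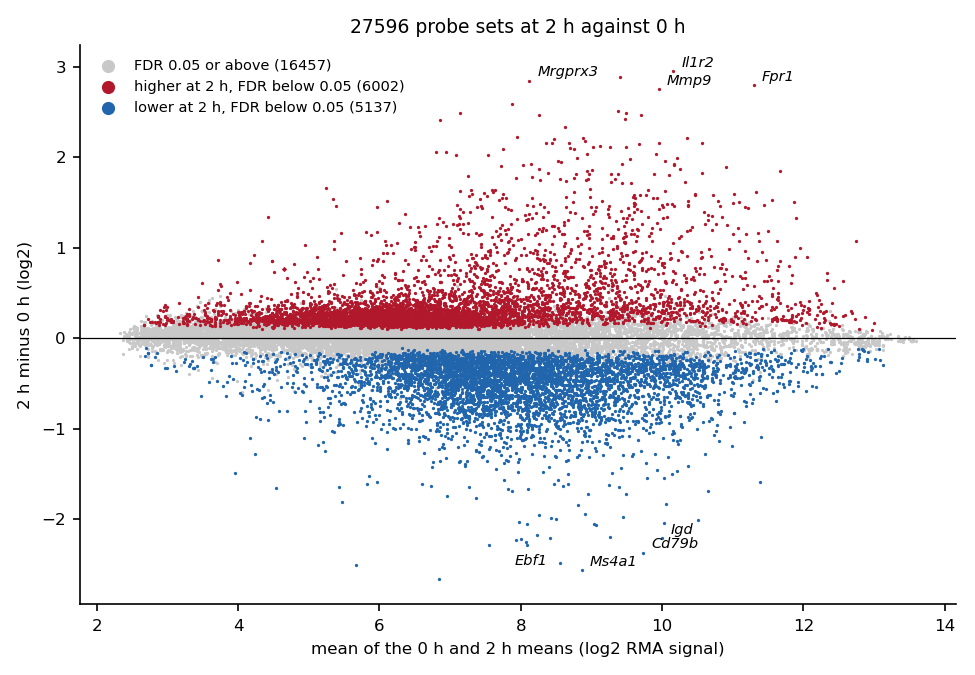
Change from 0 h to 2 h (y axis, log2) against the mean of the 0 h and 2 h means (x axis, log2 RMA signal) for 27596 probe sets, 1 point each. The 6002 points called higher reach 2.95 at Il1r2 and the 5137 called lower include Ms4a1 at -2.56, with many small rises among probe sets of low signal.

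The largest rise of any gene at 2 h was that of Il1r2, the decoy receptor that binds interleukin-1 without signalling. Its signal was 8.68 ± 0.27 at 0 h and 11.64 ± 0.12 at 2 h, a rise of 2.95 (SE 0.14, FDR 1.98e-21), which is 7.75-fold. The probe set lies at chr9:46526298-46566513 of the rn5 assembly. Of the neutrophil list, Fpr1 and Mmp9 were among the 12 largest rises. Fpr1, the receptor for formylated bacterial and mitochondrial peptides, went from 9.90 ± 0.50 to 12.70 ± 0.16, a rise of 2.80. Mmp9, the gelatinase stored in neutrophil granules, went from 8.57 ± 0.42 to 11.32 ± 0.25, a rise of 2.75. Both genes had a wider SD at 0 h than at 2 h, and both rose by more than 5 times the wider SD.

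Further genes in this group act in neutrophil granules, on myeloid surfaces or in the acute phase. Hp, which encodes the hemoglobin scavenger haptoglobin, rose by 2.49 (8.25 ± 0.37 to 10.74 ± 0.17), and Olfm4, olfactomedin 4 of a subset of neutrophil granules, rose by 2.47. The sialic acid receptor gene Cd33 rose by 2.51 (8.12 ± 0.35 to 10.63 ± 0.18). Pram1, an adaptor of myeloid cells, rose by 2.47, and Bmx, a cytosolic tyrosine kinase, rose by 2.42. The stefin genes Stfa2l2 and Stfa3, which encode small inhibitors of cysteine proteases, rose by 2.59 and 2.41. Probe sets of Stfa2l2 did not give the same size, the other one having risen by 1.19 from a higher signal. Ifitm6, of the interferon-induced transmembrane family, rose by 2.88, from 7.96 ± 0.51 to 10.84 ± 0.37. Mrgprx3, of the Mas-related G protein-coupled receptors, which are best known from sensory neurons, rose by 2.85 from 6.69 ± 0.20 to 9.54 ± 0.27. Across the 12 genes the rise was 4.15 to 11.0 times the higher of the SDs at 0 h and 2 h.

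**Figure D2:**
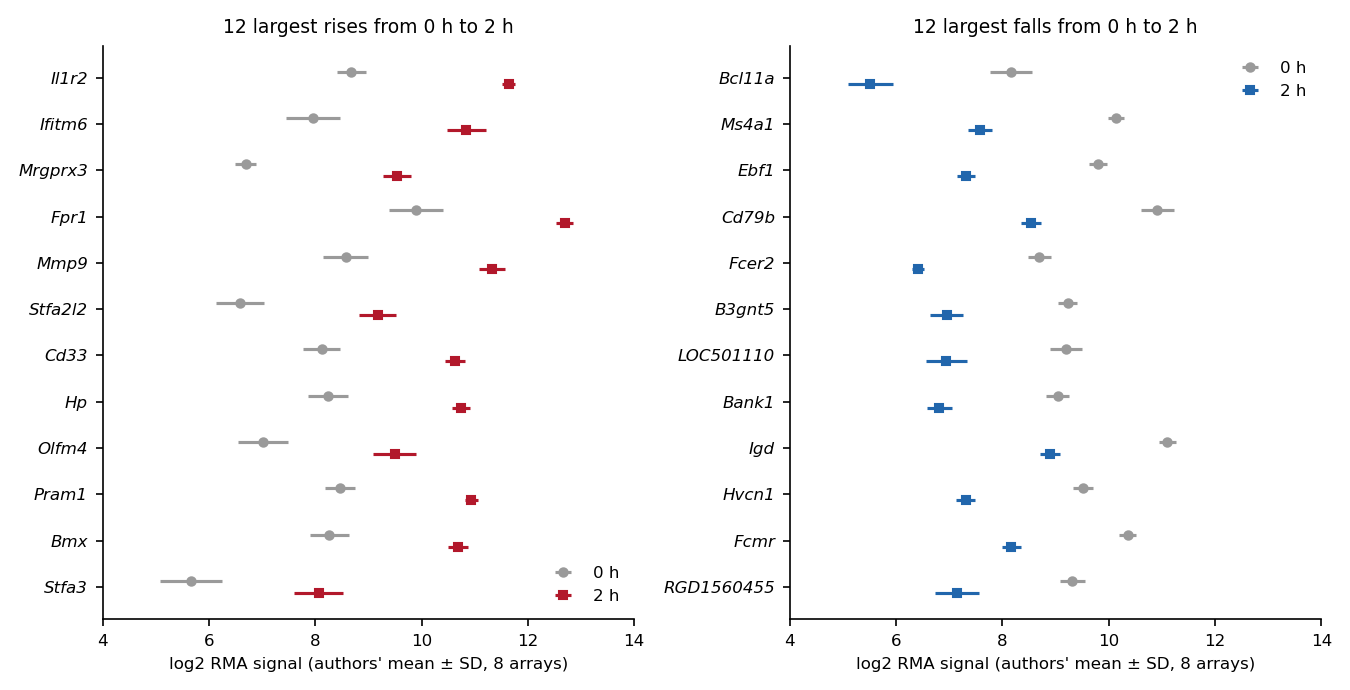
The authors' mean (points) and SD (bars) over 8 arrays at 0 h and at 2 h, in log2 RMA signal, for the 12 genes with the largest rise (left, red) and the 12 with the largest fall (right, blue). The bars of 0 h and 2 h do not meet in any of the 24 genes, and each probe set's level is comparable only with itself.

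Of the 12 largest falls, 7 were in the B cell lists. Ms4a1, which encodes the B cell surface protein CD20, went from 10.14 ± 0.16 to 7.58 ± 0.23, a fall of 2.56 (SE 0.13, FDR 1.36e-20). Ebf1, a transcription factor that B cells need to form, went from 9.80 ± 0.17 to 7.32 ± 0.17, and Cd79b, a signalling chain of the B cell receptor, from 10.91 ± 0.31 to 8.55 ± 0.19. Fcer2, the low-affinity IgE receptor CD23, fell by 2.29, and the scaffold gene Bank1 fell by 2.23. The IgD heavy chain Igd fell by 2.21, the proton channel gene Hvcn1 fell by 2.20 and Fcmr, the receptor for IgM, had a change of -2.19. Bank1 was measured by 6 probe sets, and all 6 fell, by 1.30 to 2.23. The change of Fcmr was 12.6 times the higher of its SDs and that of Ebf1 was 14.6 times, the largest such ratio of the 24 genes.

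The largest fall of all was recorded for Bcl11a, a zinc finger transcription factor of B cells and plasmacytoid dendritic cells, at 2.66, from 8.17 ± 0.39 to 5.52 ± 0.42. That probe set covers a short stretch, chr14:108635688-108636078 of rn5, and the probe set that spans the rest of the gene fell by 0.92, so the size for Bcl11a depends on the probe set. The remaining genes among the 12 were B3gnt5, which encodes a glycolipid-synthesizing enzyme, with a change of -2.28, LOC501110, described in the table as similar to a glutathione S-transferase, with -2.25, and RGD1560455, with no named function there, with -2.17.

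Of 15 measured genes of the B cell receptor and its signalling, 12 fell and 1 rose, with a median change of -1.42, and of 15 further B cell surface and transcription factor genes, 13 fell and none rose, with a median of -1.01. The median over all 20935 genes was 0.05. Within the receptor group Cd79b, Igd and Fcmr were among the larger falls, while Blk, a kinase of B cells, fell by 0.33 and Plcg2, a phospholipase of several blood cell types, fell by 0.52. Syk, the kinase below the receptor that myeloid cells also use, rose by 0.36 (FDR 9.43e-06), and Lyn and Btk changed by 0.09 and 0.07 without passing the test. In the second group Pax5, a factor that keeps B cell identity, fell by 0.18, a call lost with quantile normalized means (-0.10, FDR 0.227). Fcrla, an intracellular Fc receptor-like protein of B cells, fell by 2.06, while Cd37, a tetraspanin of several leukocyte types, and Tnfrsf13b, the receptor TACI, did not pass the test, with changes of 0.14 and -0.09.

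Genes of MHC class II presentation, the machinery by which B cells, monocytes and dendritic cells show peptides to T cells, fell in 9 of 10 measured members, with a median change of -1.17. RT1-Da, the alpha chain of a rat class II molecule, went from 10.97 ± 0.12 to 9.14 ± 0.26 and fell by 1.83. Cd74, the invariant chain that guards the class II groove, fell by 1.59 from 12.18 ± 0.14. RT1-Bb was the member that did not pass the test, at -0.04.

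Of 22 measured T cell genes 21 fell, and the median change was -0.90. Cd8b, a chain of the CD8 coreceptor, went from 9.29 ± 0.17 to 8.06 ± 0.27 and showed the largest fall of the list, 1.23. Trat1, which stabilizes the T cell receptor complex, and Ccr7, the chemokine receptor that takes naive T cells into lymph nodes, both fell by 1.10, and Cd3d, a chain of the receptor complex, fell by 1.09. The interleukin-7 receptor gene Il7r, at -0.26 (FDR 0.061), did not pass the test. Between 1 h and 2 h, a difference that leaves out the 0 h means although the spread is pooled over all time points, 19 of the 22 T cell genes fell, with a median of -0.44, where 4.86% of all genes were lower and 5.56% higher. Il7r was among those 19, at 10.22 at 0 h, 10.58 at 1 h and 9.96 at 2 h, a fall of 0.62 from 1 h (FDR 0.000134). None of the 22 was called between 2 h and 3 h, where few of all genes were, 2.27% higher and 1.94% lower.

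Genes of cytotoxic cells were divided. Of 16 measured genes, 8 fell, 3 rose and 5 did not pass the test, and with quantile normalized means 4 fell. Klrk1, which encodes the activating receptor NKG2D, fell by 0.87, Klrd1, the CD94 chain, by 0.69, and the pore-forming perforin gene Prf1 by 0.65. Klrb1b, an inhibitory receptor of natural killer cells, rose by 1.36, from 8.85 ± 0.21 to 10.22 ± 0.09. Probe sets annotated to Gzmb, the granule protease granzyme B, disagreed, since 1 rose by 1.25 and the others changed by -0.16 and -0.19 without passing the test, and these probe sets also name further genes.

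Neutrophil genes rose in 17 of 20 measured members, the highest share of any list here, with a median change of 1.39. Beside Fpr1 and Mmp9, the largest rises were those of Mcemp1, a myeloid surface protein (9.25 ± 0.24 to 11.47 ± 0.10), and Camp, the antimicrobial peptide cathelicidin (7.96 ± 0.30 to 10.07 ± 0.35). Further granule protein genes of the list differed in size. Lcn2, which encodes the iron-binding lipocalin 2, rose by 1.81 and the collagenase gene Mmp8 by 1.07. The protease genes Elane and Ctsg rose by 0.24 and 0.18, and the call of Ctsg was lost with quantile normalized means (0.11, FDR 0.0923). Mpo, the myeloperoxidase gene, changed by 0.11 and Prtn3, proteinase 3, by -0.06, neither passing the test. Ltf, which encodes lactoferrin of the secondary granules, changed by 0.01 and was not called. At 0 h the signals of Mpo (6.19), Prtn3 (6.27), Ltf (5.86), Ctsg (5.70) and Elane (6.55) were low. Genes of other tissues such as Krt14 (6.13) and Nefl (5.81) had similar signals, and whether these granule genes were above background was not tested. Other members at such levels, Cxcr1 (6.1) and Padi4 (6.7), rose by 0.57 and 1.45. Of the list, 11 genes rose between 1 h and 2 h, where 5.56% of all genes were higher. From 2 h to 3 h 1 rose and 2 fell, where 2.27% of all genes were higher and 1.94% lower.

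Monocyte genes moved in both directions, 5 of 15 higher and 6 lower. Cd14, the coreceptor for bacterial lipopolysaccharide, rose by 1.38 (7.43 ± 0.22 to 8.80 ± 0.34), and Fcgr1a, the high-affinity IgG receptor, rose by 0.86. The fractalkine receptor gene Cx3cr1 fell by 1.08, the IgG receptor gene Fcgr3a by 0.99 and the transcription factor gene Irf8 by 1.07, and the growth factor receptor gene Csf1r and the lysosomal gene Cd68 fell by 0.80 and 0.63. Ly86, the partner of a Toll-like receptor homolog that B cells also carry, fell by 1.64. In the small dendritic cell list 3 of 9 rose and 3 fell, with Clec10a, a lectin of dendritic cells and macrophages, at 0.87 and Siglech, a marker of plasmacytoid dendritic cells, at -0.68.

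Basophil, mast cell and eosinophil genes were called lower in 5 of 12 and higher in 1. The interleukin-5 receptor gene Il5ra fell by 0.92, the IgE receptor beta chain gene Ms4a2 by 0.73 and the eotaxin receptor gene Ccr3 by 0.49. In the step from 1 h, Il5ra was 0.66 lower at 2 h than at 1 h (FDR 0.000467) and Ccr3 0.68 lower (FDR 0.000105). Prg2, the eosinophil granule major basic protein gene, rose by 0.45. Of 7 plasma cell genes 1 rose and 3 fell, with Xbp1, a factor of secretory cells, at 0.63 and Irf4, a factor of plasma and T cells, at -0.77.

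Of 16 platelet genes, 7 rose and none fell, with a median of 0.26, and Selp, the adhesion molecule P-selectin, was highest at 0.71. The abundant platelet factor 4 gene Pf4 was at 13.06 ± 0.08 and 13.08 ± 0.09. Of 21 erythroid genes, 3 rose, none fell and the median was 0.10. Genes of tissues other than blood that were listed as checks also showed small rises alone, in 4 of 12 brain genes (median 0.15), 3 of 7 endothelial genes (median 0.15) and 5 of 9 skin and muscle genes (median 0.14). The largest of these was 0.29, for S100b and Cldn5. With centred means the calls fell to 3 of the platelet genes, 2 of the endothelial genes and 1 of the skin and muscle genes. With quantile normalized means they came to 5 erythroid genes, 1 endothelial gene and 3 skin and muscle genes. The astrocyte protein gene Gfap was not called, at 0.18.

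**Figure D3:**
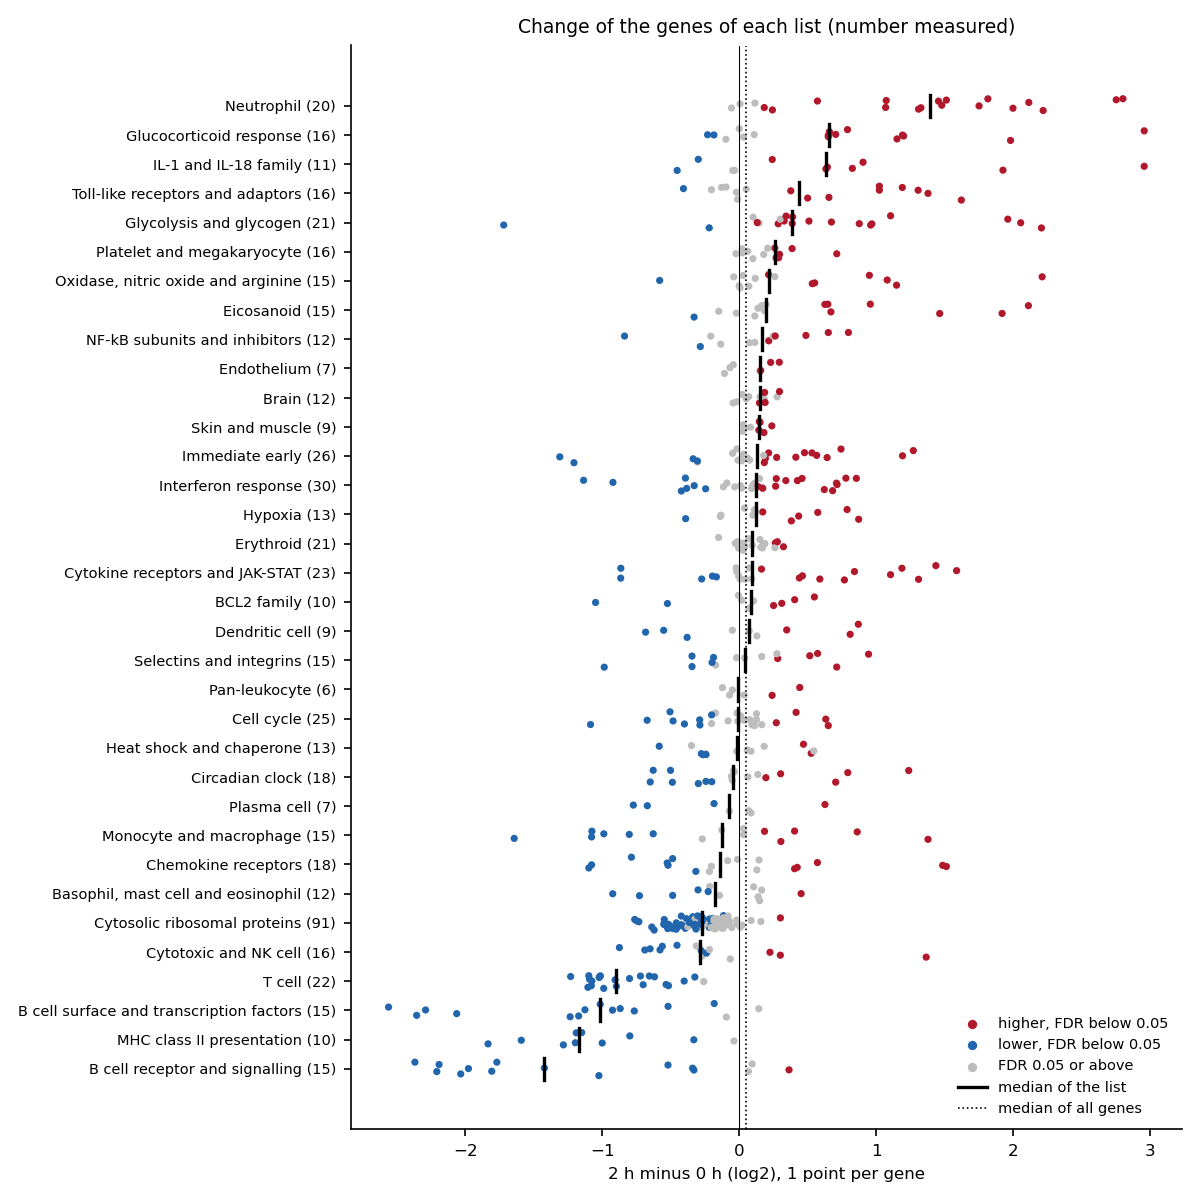
Change from 0 h to 2 h (x axis, log2) of each measured gene of 34 lists (y axis, with the number measured), red where called higher, blue where called lower and grey otherwise. Thick bars mark the list medians, from -1.42 for B cell receptor genes to 1.39 for neutrophil genes, and the dotted line is the median of all genes, 0.05.

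Genes of innate sensing rose in the larger part of their lists. In the IL-1 and IL-18 family 7 of 11 genes rose and 2 fell, with a median of 0.63. Il18rap, the accessory chain of the interleukin-18 receptor, rose by 1.92 (8.47 ± 0.25 to 10.39 ± 0.28), the signalling receptor gene Il1r1 by 0.90 and its accessory chain gene Il1rap by 0.83. Il1rl1, the receptor for interleukin-33, fell by 0.45. Among Toll-like receptors and their adaptors 9 of 16 rose and 1 fell. Tlr1 and Tlr10, both counted among the 9, had the same change of 1.02 from a probe set that names several genes. Tlr2, which binds bacterial lipopeptides, was at 1.62, its partner Tlr6 at 1.31 and Tlr5, the receptor for flagellin, at 1.19. Tlr3, for double-stranded RNA, fell by 0.41, and Tlr13 did not pass the test at 0.05.

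Some receptors for growth factors of myeloid cells were among the cytokine receptor genes that rose. In other lists the growth factor receptor genes Csf1r and Flt3 fell by 0.80 and 0.38, and the interleukin-5 receptor gene Il5ra by 0.92. Csf2rb, the chain shared by receptors for GM-CSF and interleukin-3, rose by 1.59 (8.89 ± 0.23 to 10.48 ± 0.08), and Csf3r, the G-CSF receptor gene, by 1.31. Socs3, which shuts off signals from the G-CSF receptor and from interleukin-6, rose by 1.19. Stat4, used by lymphocytes downstream of interleukin-12, fell by 0.86, as did Socs2. In the list of 23 genes as a whole, 11 rose and 5 fell.

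Of 18 chemokine receptor genes, 5 rose and 7 fell. The neutrophil receptor genes Cxcr2 and Cxcr1 rose by 1.51 and 0.57, and Ccr1 by 1.48, whereas Ccr7, Cx3cr1, the B and T cell receptor gene Ccr6 (-0.79) and the gut-homing receptor gene Ccr9 (-0.53) fell. Of 15 selectin and integrin genes, 5 rose and 5 fell. Itgam, the alpha chain of the myeloid integrin Mac-1, rose by 0.94, and Itga4, a chain of the lymphocyte and monocyte integrin VLA-4, fell by 0.98. The common leukocyte beta chain gene Itgb2 was at -0.17 and did not pass the test, although it did with centred means (-0.20, FDR 0.0375), quantile normalized means (FDR 0.0424) or the spread of the 0 h and 2 h arrays alone (FDR 0.0174).

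Effector enzymes of myeloid cells rose strongly in places. Nos2, the inducible nitric oxide synthase, went from 7.77 ± 0.23 to 9.98 ± 0.29, a rise of 2.21 (FDR 4.17e-20). Ncf4 and Ncf1, which encode cytosolic subunits of the NADPH oxidase that makes superoxide, rose by 1.08 and 0.95, while the gene of its membrane subunit Cybb fell by 0.58. In the list of 15 oxidase, nitric oxide and arginine genes, 7 rose and 1 fell. Alox5, the enzyme that starts leukotriene synthesis, rose by 2.11 (8.43 ± 0.33 to 10.54 ± 0.17), and Alox5ap, the protein that hands it arachidonic acid, by 1.92. Ptafr, the receptor for platelet-activating factor, rose by 1.46 and the cyclooxygenase gene Ptgs2 by 0.96. The eicosanoid list had 7 of 15 higher and 1 lower.

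Energy genes rose in 16 of 21 members of the glycolysis and glycogen list and fell in 2, with a median of 0.39. Ldhc, a lactate dehydrogenase first known from testis, rose by 2.20 (7.37 ± 0.26 to 9.57 ± 0.16), Hk3, a hexokinase of myeloid cells, by 2.05 (5.92 ± 0.19 to 7.98 ± 0.22) and the glucose transporter gene Slc2a3 by 1.96. Eno3, an enolase known from muscle, fell by 1.72, from 10.35 ± 0.16 to 8.63 ± 0.24. Between 1 h and 2 h 12 of the 21 rose and 2 fell. In the hypoxia list 6 of 13 rose and 1 fell, led by Egln3, an oxygen-sensing hydroxylase, at 0.87 and Vegfa, the vascular growth factor, at 0.79. The hypoxia-induced genes Bnip3 and Adm were at 0.04 and 0.11 and did not pass the test.

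The glucocorticoid list holds the glucocorticoid receptor gene beside genes that glucocorticoids are known to induce. Of its 16 members 10 rose and 2 fell. Beside Il1r2, the largest were Fkbp5, a chaperone of the glucocorticoid receptor, at 1.98 (8.56 ± 0.22 to 10.54 ± 0.15), Zbtb16, a zinc finger repressor, at 1.20, and Dusp1, a phosphatase that dampens MAP kinases, at 1.19. The 2 that fell were the receptor gene itself, Nr3c1, by 0.23, and Errfi1, by 0.18. The call of Nr3c1 was lost with quantile normalized means (-0.20, FDR 0.0583). Other textbook targets were not called, Tsc22d3 at 0.11, Ddit4 at 0.00 and Klf9 at -0.10. Neutrophils also carry Il1r2, and the part of cell numbers in these rises was not tested.

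Clock genes changed in both directions, 5 of 18 higher and 7 lower. Usp2, a deubiquitinase with a daily rhythm, rose by 1.24 (6.33 ± 0.20 to 7.56 ± 0.08), Nfil3, a repressor of clock output, by 0.79 and Per1, a core repressor, by 0.70. The core activator genes Clock and Arntl fell by 0.65 and 0.50, Cry1 by 0.49 and Bhlhe40 by 0.63. With 0 h and 2 h at different hours of the day, time of day and treatment cannot be told apart here.

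Immediate early genes, which cells switch on within minutes of a stimulus, were higher in 12 of 26 and lower in 4. Ier3, an early gene of survival signalling, rose by 1.27 and the zinc finger gene Egr1 by 0.74, although Egr1 had the wide SDs of 0.76 at 0 h and 0.42 at 2 h. Klf4 and Nr4a1, both known from monocytes, fell by 1.31 and 1.21. Of 12 NF-kB subunit and inhibitor genes 5 rose and 2 fell. The inhibitor genes Nfkbiz and Nfkbia rose by 0.80 and 0.65, and Rel and Nfkb1, which encode subunits, fell by 0.84 and 0.28.

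Heat shock and chaperone genes had 2 of 13 higher and 4 lower (6 with centred and 2 with quantile normalized means), with Hspa1a at 0.53 and the mitochondrial cochaperonin gene Hspe1 at -0.58. In the BCL2 family 4 of 10 rose and 2 fell, with the survival gene Bcl2 at -1.05 (10.69 ± 0.14 to 9.64 ± 0.22) and Bcl2l1, which encodes the survival protein Bcl-xL, at 0.55. Of 25 cell cycle genes 4 rose and 8 fell. The replication helicase gene Mcm3 fell by 1.08 and the clamp gene Pcna by 0.67, while Rrm2, which makes DNA precursors, rose by 0.69 and 0.61 in its probe sets. Cytosolic ribosomal protein genes fell in 52 of 91 and rose in 1, with a median of -0.27, and Rpl3 showed one of the larger falls at 0.75. Many ribosomal protein genes have near-identical copies in the genome, so how their probe sets share signal is uncertain.

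Interferon-stimulated genes did not move as a block, 13 of 30 being higher and 7 lower, with a median of 0.12. Ifit3, an antiviral protein that binds foreign RNA, rose by 0.85 (11.24 ± 0.17 to 12.10 ± 0.11), Oasl by 0.78, the ubiquitin-like modifier gene Isg15 by 0.71 and the RNA sensor gene Ifih1 by 0.71. The antiviral GTPase genes Mx2 and Mx1 fell by 1.14 and 0.92, from 9.67 ± 0.14 and 10.44 ± 0.16, Ifi44l fell by 0.42 and Dhx58, a further RNA sensor, by 0.39. Each of these exceeded its own SDs.

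The promoters of such genes carry the interferon-stimulated response element. RefSeq promoters of 300 bases, 250 before the start site, were searched on both strands of GRCr8 for its core, GAAA followed after any 2 bases by a second GAAA. Of 20 interferon list genes with a promoter in the table, 12 held it (60.0%), against 3.92% of all 33469 promoters. Genes that rose, such as Ifit3 and Ifih1, and genes that fell, such as Ifi44l and Bst2 (-0.33, or -0.25 and not called with quantile normalized means), were among the 12, as were Irf7, Gbp2, Rsad2, Oas1a and Oas1b, which were not called. Shown are Ifit3, at chr1:241527076-241527375, plus strand, and Ifi44l, at chr2:243328473-243328772, plus strand, as a gene that rose and a gene that fell, with the matches on either strand in capitals. A match is a description of the letters and no sign that a factor was bound.
Ifit3: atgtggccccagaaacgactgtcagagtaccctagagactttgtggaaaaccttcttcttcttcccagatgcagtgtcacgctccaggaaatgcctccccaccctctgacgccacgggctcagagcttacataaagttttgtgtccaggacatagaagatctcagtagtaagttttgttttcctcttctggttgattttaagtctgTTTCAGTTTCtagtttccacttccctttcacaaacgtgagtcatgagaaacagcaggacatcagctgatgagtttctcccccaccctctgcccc
Ifi44l: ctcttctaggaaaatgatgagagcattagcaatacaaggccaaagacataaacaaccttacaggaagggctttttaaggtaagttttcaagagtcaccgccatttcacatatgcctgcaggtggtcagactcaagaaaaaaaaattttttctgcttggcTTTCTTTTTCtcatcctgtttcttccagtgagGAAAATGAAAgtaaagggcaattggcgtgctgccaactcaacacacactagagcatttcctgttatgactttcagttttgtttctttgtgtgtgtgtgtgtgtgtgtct

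The same search was made for the octamer ATGCAAAT, a site of the B cell coactivator pathway, in the promoters of the B cell list genes. Of 19 promoters from the B cell lists 2 held it (10.5%), those of Blnk and Vpreb3, against 1.78% of all promoters. It was also in 3 of 20 interferon list promoters (15.0%), 2 of 17 immediate early promoters (11.8%) and 1 of 17 clock gene promoters (5.88%), and these small counts were not tested. Blnk, the adaptor that links the B cell receptor to its signals, fell by 1.77, and Vpreb3, a chaperone of the receptor's light chain, by 0.77. Their windows, Blnk at chr1:249770484-249770783 and Vpreb3 at chr20:12718177-12718476, both on the minus strand of GRCr8, are shown with the octamer, here read as its reverse complement, in capitals. The E-box CACGTG, to which clock proteins bind, was found in 5 of 17 clock gene promoters (29.4%) and in 4 of 17 immediate early promoters (23.5%), against 6.42% of all. The cAMP response element TGACGTCA was found in 5 of 17 immediate early gene promoters (29.4%), against 1.83% of all. Of the 24 genes with the largest changes, 14 had promoters in the table, and none of these held any of the motifs.
Blnk: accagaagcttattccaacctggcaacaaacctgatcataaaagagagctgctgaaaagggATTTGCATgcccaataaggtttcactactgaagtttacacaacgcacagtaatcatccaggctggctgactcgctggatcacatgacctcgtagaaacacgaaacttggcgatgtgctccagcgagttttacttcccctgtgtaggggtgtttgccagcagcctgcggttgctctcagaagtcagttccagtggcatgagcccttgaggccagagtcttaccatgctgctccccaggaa
Vpreb3: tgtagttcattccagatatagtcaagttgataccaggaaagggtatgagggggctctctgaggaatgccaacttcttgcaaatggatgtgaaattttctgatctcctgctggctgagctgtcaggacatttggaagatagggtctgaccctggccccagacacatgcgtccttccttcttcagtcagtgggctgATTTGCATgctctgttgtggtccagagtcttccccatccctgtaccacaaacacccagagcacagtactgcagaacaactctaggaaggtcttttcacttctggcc

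The array also carries probe sets annotated to microRNA genes. They lie on the hairpin or its surrounding transcript, so their signal does not measure the mature microRNA, the short strand that guides silencing through its seed, bases 2 to 8. Of 250 probe sets with a microRNA symbol alone, 63 were higher at 2 h (25.2%) and 11 lower (4.40%), with a median of 0.09, beside 21.7% higher and 18.6% lower over all probe sets. A change of at least 0.5 was reached by 11 called probe sets upward and 3 downward. The ones described here were chosen after their values were seen.

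The largest rise was at the Mir290 cluster of chromosome 1, whose products are best known from embryonic stem cells. Mir292 rose by 2.13, Mir291a by 1.55 and Mir290 by 1.53. The cluster lies on the minus strand of rn5, where Mir292 begins 3403 bases beyond the end of Nlrp12, an NLR gene of myeloid cells on the plus strand, and the Nlrp12 probe set rose by 2.00 (FDR 5.97e-19). Their mature sequences from RefSeq (GRCr8) follow, with the seed in capitals. The seeds of miR-290 and miR-292-5p are the same, and those of the 3p strands are related but not identical.
rno-miR-290: uCUCAAACuaugggggca
rno-miR-291a-3p: aAAGUGCUuccacuuugugugcc
rno-miR-292-3p: aAGUGCCGccagguuuugagugu
rno-miR-292-5p: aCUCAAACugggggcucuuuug

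Genes of leukocyte microRNAs moved as well. Mir223, of the microRNA abundant in neutrophils, rose by 1.59, and Mir147, induced in macrophages by Toll-like receptors, by 0.90, although the Mir147 probe set spans 3400 bases and so covers far more than a hairpin. Mir221 rose by 0.88 while Mir222, which lies beside it on chromosome X, was at 0.15 and did not pass the test (FDR 0.223). Mir342, which lies inside Evl, a gene of actin regulation expressed in lymphocytes, fell by 0.65, and the Evl probe set fell by 0.95. In each of these loci the strand that is shown is the better known guide, with the seed in capitals.
rno-miR-223-3p: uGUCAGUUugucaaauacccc
rno-miR-147: gUGUGCGGaaaugcuucugcua
rno-miR-221-3p: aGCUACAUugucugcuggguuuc
rno-miR-342-3p: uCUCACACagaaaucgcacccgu

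Members of the Mir29 family share their seed and sit in clusters on separate chromosomes. Mir29a on chromosome 4 rose by 1.03, and Mir29b2 and Mir29c on chromosome 13 rose by 0.85 and 0.68. Mir29b1, beside Mir29a, stood at 3.51 at 0 h and changed by 0.00. The difference between neighbours of a cluster is one between probe sets, whose response to the same transcript can differ.
rno-miR-29a-3p: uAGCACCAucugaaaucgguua
rno-miR-29b-3p: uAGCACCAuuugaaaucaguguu
rno-miR-29c-3p: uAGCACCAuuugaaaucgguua

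**Figure D4:**
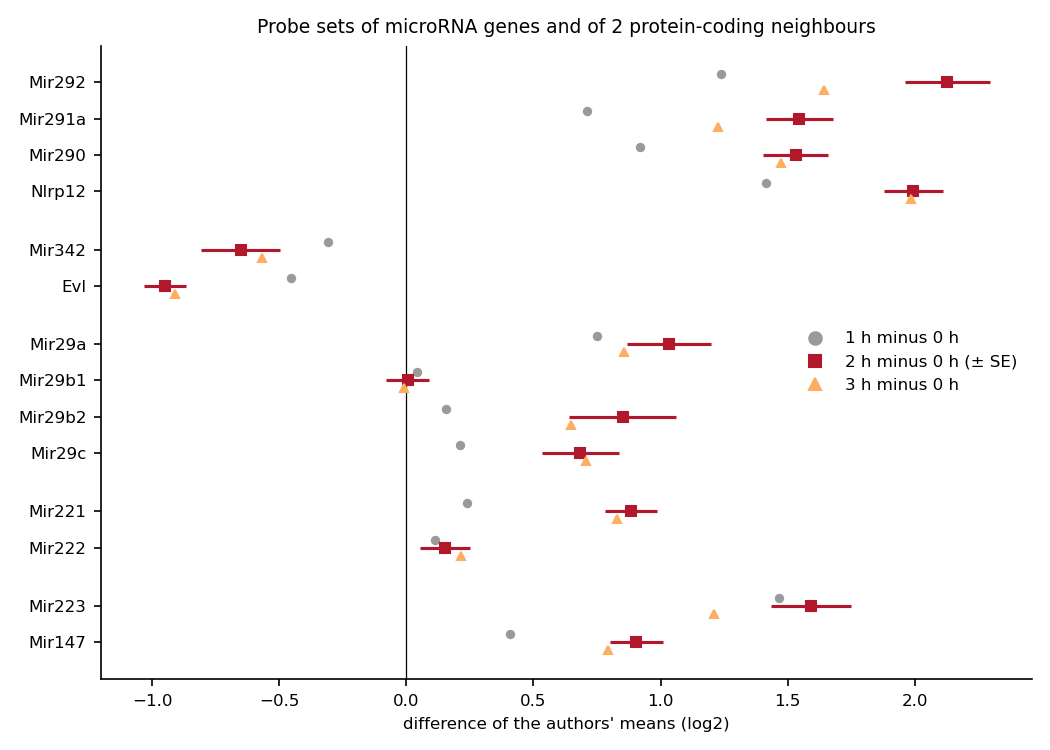
Differences of the authors' means from 0 h (x axis, log2) at 1 h, 2 h (with its SE) and 3 h for probe sets of microRNA genes and of Nlrp12 and Evl, grouped by locus. All 3 differences of a gene share its 0 h arrays. At 2 h the Mir290 cluster and Nlrp12 lie between 1.53 and 2.13, and Mir342 and Evl at -0.65 and -0.95.

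How far 2 h was a time point of its own was asked by setting its means against those of 1 h and 3 h. From 1 h to 2 h, 2422 probe sets changed (8.78%), 1287 higher (4.66%) and 1135 lower (4.11%). With the means centred on their median the split was 1516 higher and 839 lower. From 2 h to 3 h, 973 probe sets changed (3.53%), 525 higher (1.90%) and 448 lower (1.62%), a split that turned to 460 higher and 516 lower with centred means and to 448 higher and 487 lower with quantile normalized means, and by gene the shares were 2.27% higher and 1.94% lower. The 1 h blood preceded the withdrawal of the thread and the second anesthesia and the 2 h blood followed them, so that these and the passing of time cannot be told apart in this step.

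Several of the largest rises from 1 h to 2 h were in genes that had hardly moved at 1 h. These genes were picked out after their values were seen. Tnf, the cytokine tumor necrosis factor, was at 7.68 ± 0.35 at 0 h, 7.72 at 1 h and 9.08 ± 0.52 at 2 h, a rise of 1.36 from 1 h (FDR 1.29e-06). Vcan, a matrix proteoglycan that monocytes express, stood at 9.39, 9.48 and 10.88 at the same times. Sema4a, a semaphorin of immune cells, stood at 7.45, 7.61 and 8.76, and Cd14 at 7.43, 7.65 and 8.80. Tfec and Rnase2, a myeloid transcription factor and a secreted ribonuclease, were lower at 1 h than at 0 h by 0.30 and 0.33 and higher at 2 h than at 0 h by 0.93 and 0.95. Vcan, Sema4a and Tfec went on to rise from 2 h to 3 h, by 0.88, 0.50 and 1.24, whereas Tnf did not pass the test in that step (-0.29).

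A small set of genes was highest or lowest at 2 h among the times up to 3 h, with no test made against 6 h. The 2 h mean was above 0 h, 1 h and 3 h with all 3 differences called in 158 probe sets (0.573%), and below them in 34 (0.123%). Mrgprx3 had the largest rise of the first set, falling by 0.62 from 2 h to 3 h (FDR 0.00031) and reaching 7.72 at 6 h and 7.14 at 24 h. Ldhc fell by 0.64 from 2 h to 3 h, Camp by 0.67 and Uaca, a coiled-coil protein linked to cell death, by 0.51. Fkbp5, at 10.12, 10.54 and 10.14 at 1, 2 and 3 h, and Sqrdl, which oxidizes sulfide in mitochondria, at 10.49, 11.19 and 10.87, complete the 6 largest. Other members from the lists above included Padi4, the enzyme that citrullinates histones in neutrophils, Tlr5, Ifih1, the interleukin-17 receptor gene Il17ra, the oxidase subunit gene Cyba, the glycolytic regulator gene Pfkfb4, the glycogen synthase gene Gys1 and the interferon-stimulated genes Oasl2 and Zbp1.

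The genes lowest at 2 h had a median change of -0.69 and those highest a median of 0.70. Fcrl1, an Fc receptor-like protein of B cells, was at 9.49 ± 0.22, 8.48, 7.49 ± 0.33 and 8.04 at 0, 1, 2 and 3 h, having returned to 9.40 at 24 h. Rhoh, a GTPase of blood cells, had fallen by 1.45 at 2 h and rose by 0.52 to 3 h. Gpr183, which guides B cells and dendritic cells by oxysterols, had fallen by 0.98 and rose by 0.36, and Acvr2a, an activin receptor, by 0.95 and 0.47. Rtcb, a tRNA ligase, fell by 1.00 and rose by 0.51, but was at 7.93 at 6 h, near its level at 2 h, and LOC689014 gave nearly the same means at every time point (7.93 at 2 h, where Rtcb was at 7.88), so whether these probe sets measure separate transcripts was not tested.

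**Figure D5:**
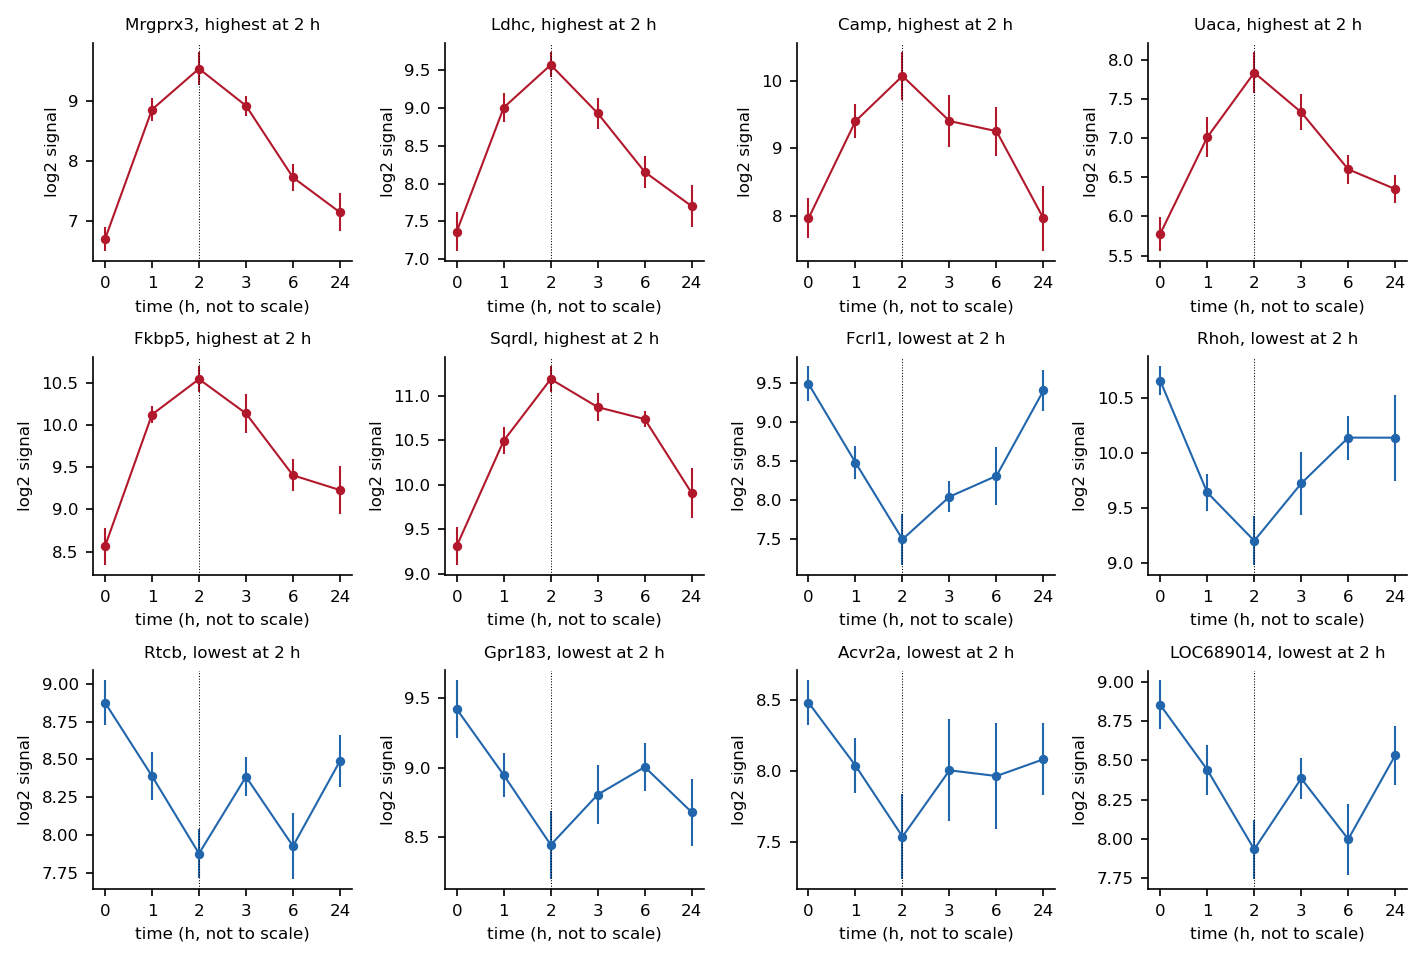
The authors' mean and SD (bars) of log2 RMA signal at each time point (x axis, h, not to scale) for the 6 genes with the largest change among those highest (red) and lowest (blue) at 2 h, each panel with its own y axis. The dotted line marks 2 h, where Mrgprx3 reached 9.54 and Fcrl1 7.49.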

How the data were processed

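RNA from whole blood cell pellets of 8 SHR rats was hybridized to Affymetrix RaGene arrays. The authors made log2 signals by RMA, which corrects background, quantile normalizes the arrays and joins the probes of a probe set, and deposited for 27596 probe sets (annotation on rn5) the mean and SD of the log2 signal at each time point. The submitters' processing notes name limma. The deposited table also holds the authors' own fold changes, p-values and FDRs, which were not used, and 47 columns of values per array, which are headed by running numbers alone, were not assigned to samples by their order and were used in no step. The limma model planned for single arrays was therefore replaced by the same moderated test (limma 3.58.1, R 4.3.3) computed from the means, the SDs and the number of arrays, with the spread pooled over 6 time points (41 residual degrees of freedom) and Benjamini-Hochberg adjustment over all probe sets. It takes the arrays as independent, although the rats are the same at each time point, and the number of arrays limits its precision. Simulated data for this comparison over 27596 probe sets held 200 that were changed. The test called 14 of 50 changes of 0.25, 45 of 50 of 0.5 and all 50 of 1, and 4.79% of its calls were false. In the data 11139 probe sets were called, far more than the 200, so these rates need not hold there.

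A gene with several probe sets was given the mean of their changes and counted as called if any was called and none the other way. Some probe sets name several genes and were matched to each. Members, lists and comparisons were chosen with earlier results of these data known, so no list was tested as a set. Genes named include the 12 largest rises and falls and up to 4 of each per list with the uncalled members of highest signal. They also include the 6 largest of those highest or lowest at 2 h. Further genes were picked outside these rules, among them Blk, Plcg2, Pax5, Lcn2, Mmp8, Elane, Ctsg, Csf1r and Cd68. The microRNA genes and those of the step from 1 h to 2 h were separate picks. Promoter and microRNA sequences are RefSeq's (GRCr8), and 222 of 250 microRNA probe sets had one. The alternatives tried were other estimates of the spread, centred or quantile normalized means, a filter that dropped 25% of probe sets, those of lowest signal, 1 probe set per symbol and a minimum change of 0.5. Some list members are counted with their lists but are not reported here by name.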

Additional observations from a re-analysis of the deposited data

How the results depend on the processing

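The counts of probe sets called at 2 h against 0 h, 2 h against 1 h and 3 h against 2 h stayed within 1.5 times of those reported under every alternative run but the minimum change. With a change of at least 0.5 also required, 3024 probe sets were called at 2 h against 0 h, 964 higher and 2060 lower, by construction fewer. The medians of all 34 lists moved by less than the spread between arrays. In the selectin and integrin list and the cell cycle list, where the median lay near 0, its sign differed between settings. Of 589 probe sets named or taken from the lists, 95 crossed the threshold under at least 1 of the 4 alternatives run on them, among them Fos (FDR 0.0626 with the spread of the 0 h and 2 h arrays alone) and Il7r (FDR 0.0401 with centred means), and the cause was not tested. No called value changed sign. No paired analysis was possible because the deposited means carry no rat numbers and the numbered array columns, which no label ties to a rat, were not assigned by order, so the fit with a replicate block and the fits that leave out each rat, both planned, were not run.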
